A study of Mus musculus with 35 samples.

Results

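The average effect of inspired CO2 on lung RNA was taken from 30 ventilated mice, 15 given CO2 (hypercapnia) and 15 not (normocapnia), out of 35 arrays in the series. Members were chosen by their titles alone: every low or high stretch array entered an additive model of stretch and CO2, and the CO2 term is reported, so that each stretch level was compared within itself before averaging. Of the 35557 probe sets, 21789 carried exactly 1 gene symbol, and keeping the brightest per gene over all 35 arrays left 19938 genes. The series used 1 inbred strain, C57BL/6J; its mice were adult and male, and ventilation lasted 3 h. Lungs were lavaged before they were taken and frozen. Low stretch meant a tidal volume of 10 mL/kg with 2 cmH2O of end-expiratory pressure at 135 breaths per minute. The low stretch normocapnia mice (n = 5) breathed room air and the low stretch hypercapnia mice (n = 5) breathed 12% CO2 balanced with room air. High stretch meant 35 to 40 mL/kg, a peak pressure of 27 cmH2O, no end-expiratory pressure, 30 to 35 breaths per minute and 75% oxygen. It was given without CO2 to the high stretch normocapnia mice (n = 10) and with 12% CO2 to the high stretch hypercapnia mice (n = 10). The 5 remaining arrays are of non-ventilated mice, which had no CO2 contrast and served only to show a level. Because the high stretch arrays are 20 of the 30, they carry more weight than the low stretch arrays in the average. Whole lung was measured, so fewer cells of a type and less RNA per cell cannot be told apart in any value below.

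Carbon dioxide combines with tissue water to give bicarbonate and protons, a reaction that carbonic anhydrases speed up, and cells restore their internal pH with proton and bicarbonate transporters. In the injured lung, hypercapnic acidosis is known for dampening inflammatory signalling through NF-kappaB and for slowing epithelial repair and fluid clearance. High CO2 has also been studied as a signal that cells sense apart from pH.

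Hypercapnia changed many lung genes by small amounts. Of 19938 genes, 1701 passed for the CO2 term, 8.53% (limma, Benjamini-Hochberg adjusted p under 0.05). Of these, 772 rose (3.87%) and 929 fell (4.66%). The median size of a change that passed was 0.17 log2 units, or 1.13-fold, and 20 genes passed with at least 0.5 log2 units, 5 of them up and 15 down. None passed with a full log2 unit. At an unadjusted p under 0.05 there were 4104 genes, where 997 would be there by chance. With the arrays centred on their medians the calls were 583 up and 1069 down, so the share of falls moved from 54.6 to 64.7% with the scaling. With equal weight of both stretch levels 1273 genes passed, 565 up and 708 down. Of the largest changes named below, Rdh12, Cckar, Stat4 and Timp1 lost their call there. Other named genes that lost it include Dhcr7 and Amotl2.

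**Figure D1:**
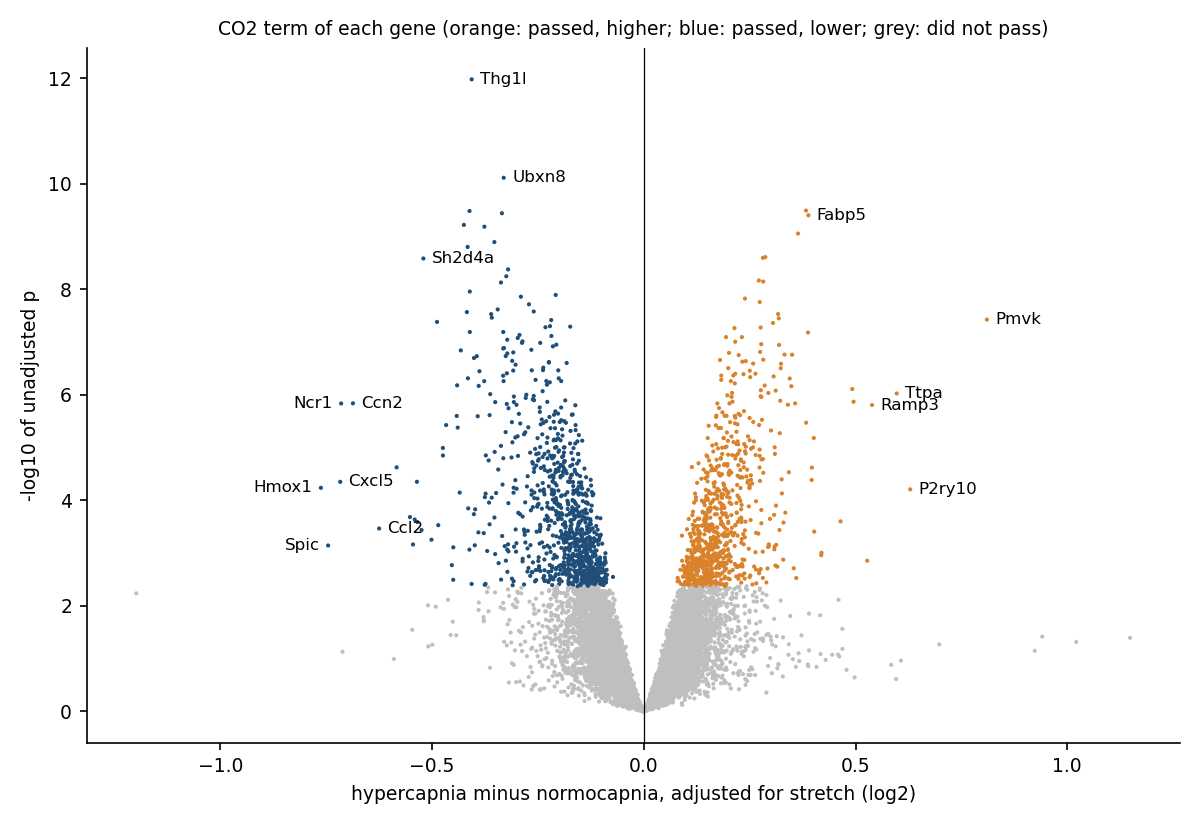
CO2 term of each of 19938 genes: the x axis is hypercapnia minus normocapnia adjusted for stretch (log2), the y axis is -log10 of the unadjusted p, and colours mark the 772 genes that rose (orange) and the 929 that fell (blue). Pmvk is the largest rise at 0.81 and Hmox1 the largest fall at -0.76, while Thg1l has the smallest p; the points beyond 0.81 in grey did not pass.

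The arrays had similar spreads. Their medians lay between 6.96 and 7.05 and the SD over all probe sets between 2.19 and 2.26. A set of 13 skeletal muscle markers stood apart on 4 of the 30 arrays: their mean signal was 7.61 to 8.37 there and 6.16 to 6.61 on the other 26. These were 1 low stretch normocapnia, 1 low stretch hypercapnia and 2 high stretch hypercapnia arrays, so 3 of the 4 had CO2. The median CO2 term of the 13 markers was 0.29 and none passed; without the 4 arrays it was 0.01. The 4 squamous epithelium genes Krt4, Krt13, Krtdap and Sprr3 had CO2 terms of 0.92 to 1.15 that did not pass, larger than any term that passed, and -0.01 to 0.15 without those arrays. Their mean signal reached 11.12 on the arrays with muscle signal, where 1 of the 4 stayed at 5.21, and at most 6.44 on the others. Without the 4 arrays 1125 genes passed, 530 up and 595 down, and 1077 of them were among the 1701. None of the 1701 changed sign. They were chosen on arrays that this fit reuses, which favours equal signs, so this is no test of agreement. Of the 30 largest changes named below, 26 passed without them. Of 184 genes chosen for naming, 32 lost their call without the 4 arrays: Aass, Atoh8, B3galt6, Cckar, Dhcr7, Ears2, Efs, Fads1, Fcrla, Fkbp5, Fzd4, Ints2, Itga8, Klrb1c, Lrp5, Mir331, Mirlet7e, Nos3, Notch3, Nprl3, Osgin1, Pde3a, Rora, Slc7a1, Spic, Srebf2, Tgfb2, Timp1, Tnc, Vcam1, Wfdc21 and Wnt2b. With centred arrays 12 lost it. Fewer arrays also mean less power, and leaving out 1 array alone gave as few as 1481 genes. Of the 32, Ears2 lost its call in 23 and Fads1 in 21 of the 30 fits that left out 1 array. Cckar, Spic and Timp1 lost it in none of them. The part of the muscle RNA in these losses and in other results was not tested.

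The largest rise belonged to Pmvk, phosphomevalonate kinase, which makes mevalonate diphosphate in the pathway to cholesterol. At low stretch its log2 signal was 9.09, 9.13, 9.21, 9.42 and 9.81 without CO2 and 9.61, 9.93, 10.27, 10.50 and 11.04 with it. The high stretch arrays ran from 9.92 to 10.80 with a median of 10.24 without CO2, and from 10.75 to 11.65 with a median of 10.996 with it. The lowest hypercapnia array lay just inside the normocapnia range at each level. The CO2 term was 0.81 ± 0.11 (SE), a 1.75-fold rise (adjusted p = 2.24e-05). Non-ventilated lungs had 8.38 to 8.91, and the stretch term for Pmvk was also upward at 0.88.

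Ramp3, an accessory protein that lets the calcitonin receptor-like receptor bind adrenomedullin, had 6.97, 6.97, 7.26, 7.27 and 7.28 at low stretch without CO2 and 7.70, 7.75, 7.77, 7.90 and 8.22 with it. In the high stretch mice it ran from 7.13 to 7.63 (median 7.35) without and from 7.48 to 8.68 (median 7.65) with CO2. The low stretch groups did not overlap, and the high stretch groups did. Its term was 0.54 ± 0.09 (adjusted p = 0.000205). Kcnj2, the inward rectifier potassium channel Kir2.1, rose by 0.49 ± 0.08, P2ry10, a lysophospholipid receptor of lymphocytes, by 0.63 ± 0.14, and Cckar, a cholecystokinin receptor, by 0.42 ± 0.12. Without the 4 arrays with muscle signal Cckar was at 0.32 and did not pass (adjusted p = 0.11), nor did it with equal weight of both stretch levels (0.0687) or without the stretch term (0.222).

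Fabp5, a fatty acid binding protein, had 8.72, 8.76, 8.79, 8.87 and 8.89 at low stretch without CO2 and 8.89, 9.07, 9.19, 9.22 and 9.26 with it. Its high stretch arrays ran from 8.70 to 9.04 (median 8.90) without and from 9.19 to 9.49 (median 9.28) with CO2. Every hypercapnia array was above every normocapnia array of its own stretch level, and the term was 0.39 ± 0.04 (adjusted p = 1.31e-06). Ttpa, the alpha-tocopherol transfer protein that moves vitamin E, rose by 0.60 ± 0.10, and Slc38a4, a sodium-coupled amino acid transporter, by 0.50 ± 0.08. Rdh12, a retinol dehydrogenase, rose by 0.53 ± 0.15 and Mat1a, a methionine adenosyltransferase, by 0.40 ± 0.08. The remaining large rises were Tbc1d8 (0.46), Stat4 (0.42), a transcription factor of interleukin-12 signalling, Tnfsf9 (0.40), Mpp3 (0.40) and Car14 (0.38). Rdh12 and Stat4 did not pass with equal weight of both stretch levels.

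The largest fall was that of Hmox1, heme oxygenase 1, which degrades heme and is induced by oxidative stress. Its low stretch values were 9.63, 9.87, 10.14, 11.03 and 11.54 without CO2 and 9.40, 9.75, 9.91, 10.24 and 10.62 with it. At high stretch it ran from 10.90 to 12.10 (median 11.48) without and from 9.89 to 11.07 (median 10.59) with CO2. The groups overlapped at both levels, most at low stretch. The CO2 term was -0.76 ± 0.16, a 1.70-fold fall (adjusted p = 0.00252), and non-ventilated lungs had 8.49 to 8.90. Spic, a transcription factor of red pulp macrophages that is induced by heme, fell by 0.75 ± 0.20 with an adjusted p of 0.0147, and missed the threshold without the 4 arrays with muscle signal (adjusted p = 0.0707).

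Cxcl5, a neutrophil-attracting chemokine of alveolar epithelium, had 6.00, 6.05, 6.23, 6.23 and 6.40 at low stretch without CO2 and 5.46, 5.82, 5.82, 5.89 and 6.15 with it. The high stretch arrays ran from 6.87 to 8.54 (median 7.34) without and from 6.11 to 7.59 (median 6.56) with CO2. The groups overlapped by few arrays at each level, and the term was -0.72 ± 0.15 (adjusted p = 0.00207). Ccl2, which attracts monocytes, fell by 0.63 ± 0.16 (adjusted p = 0.0088). Mmp9, a gelatinase of neutrophils, fell by 0.53 ± 0.13, Timp1, a metalloproteinase inhibitor, by 0.55 ± 0.14, and Tnc, the matrix protein tenascin C, by 0.50 ± 0.13. Timp1 and Tnc did not pass without the 4 arrays with muscle signal (adjusted p of 0.0925 and 0.0884).

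Ccn2, connective tissue growth factor and a standard target of YAP, had 10.71, 11.10, 11.11, 11.34 and 11.62 at low stretch without CO2 and 9.80, 10.50, 10.74, 10.79 and 10.82 with it. In the high stretch mice it ran from 11.70 to 12.16 (median 12.03) without and from 10.62 to 11.87 (median 11.36) with CO2. Only 1 low stretch normocapnia array fell within the low stretch hypercapnia range. The term was -0.69 ± 0.12 (adjusted p = 0.000197), and the low stretch mean with CO2, 10.53, lay below the mean of the non-ventilated lungs, 11.25. Ncr1, the natural killer cell receptor NKp46, fell by 0.71 ± 0.12 (adjusted p = 0.000197). The other large falls were Rnd1 (-0.58), Scel (-0.55), Treml4 (-0.54), Mthfd2 (-0.54), Sh2d4a (-0.52) and Ctps (-0.49), the enzyme that makes CTP.

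**Figure D2:**
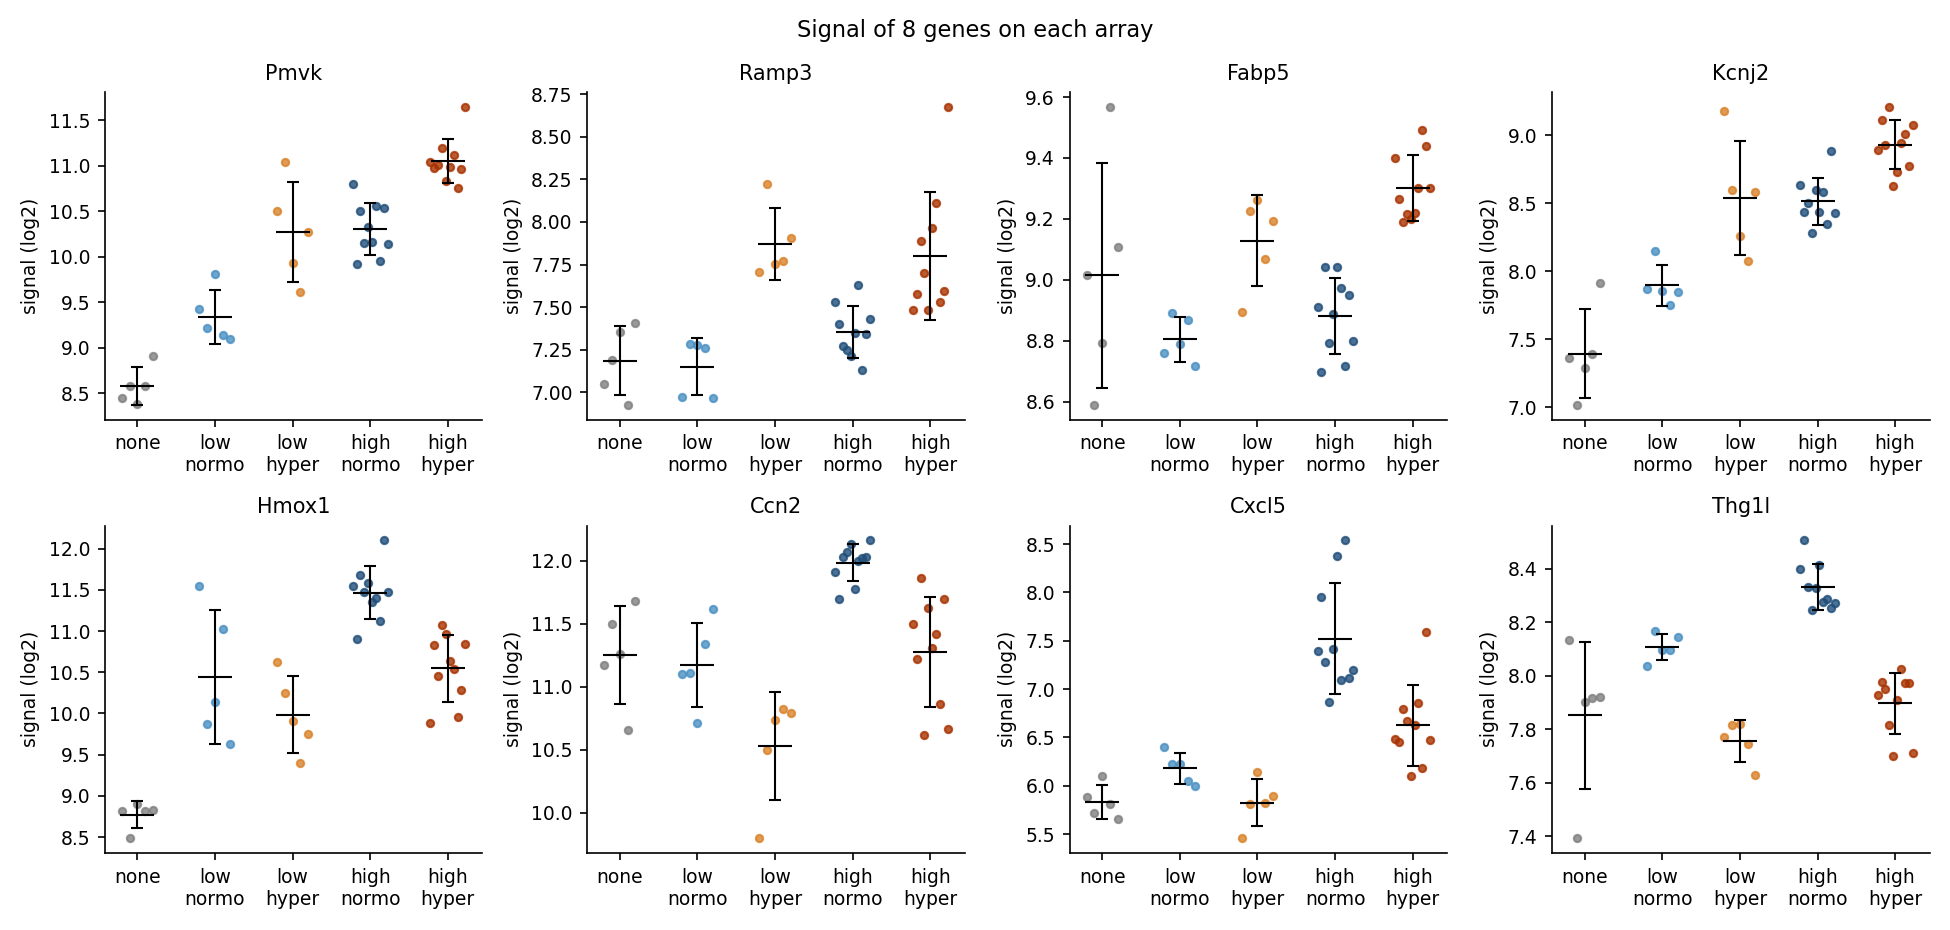
Log2 signal (y axis) of 8 genes on each array by group (x axis: non-ventilated, then low and high stretch without and with CO2); points are arrays, black bars the mean and SD. Pmvk, Ramp3, Fabp5 and Kcnj2 were higher and Hmox1, Ccn2, Cxcl5 and Thg1l lower with CO2 at both stretch levels, and the Thg1l groups did not overlap.

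The most regular changes were not the largest. Thg1l, which adds a guanosine to the 5′ end of histidine tRNA, had the smallest p of all genes. Its low stretch values were 8.04, 8.09, 8.10, 8.14 and 8.17 without CO2 and 7.63, 7.75, 7.77, 7.81 and 7.82 with it. At high stretch it ran from 8.24 to 8.51 (median 8.31) without and from 7.70 to 8.02 (median 7.94) with CO2. All 15 hypercapnia arrays were below all 15 normocapnia arrays, whatever the stretch, and the term was -0.41 ± 0.04 (adjusted p = 2.08e-08). Ubxn8 (-0.33), Fastkd2 (-0.41), Ddx18 (-0.34) and Fbxo44 (0.38) complete the 5 smallest p-values. In non-ventilated lungs Thg1l had 7.39 to 8.13, a range that covers the hypercapnia values.

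Only 21 genes, 0.105% of those tested, had no overlap of the CO2 groups at both stretch levels, and all 21 passed. Of these 8 were up (0.0401%) and 13 down (0.0652%). With all 15 arrays beyond all 15 there were 5 genes (0.0251%), Thg1l and Gtf2h3 (-0.29) down, and Fbxo44, Atp8b2 (0.36) and Spats2 (0.28) up. The others that fell were Utp20, Fastkd2, Hhex (-0.41), Wdr77 (-0.38), Nif3l1 (-0.34), Ddx18, Ubxn8, Gpam (-0.33), Nop2 (-0.29), Phldb2 (-0.26) and Aqr (-0.22). The others that rose were Fabp5, Dgka (0.29), Amotl1 (0.24), Zbtb34 (0.22) and Man2a2 (0.21). As background, Utp20 and Nop2 act in ribosome assembly, Ddx18 is an RNA helicase, Aqr a spliceosome protein and Dgka a diacylglycerol kinase. These genes were named because of their values.

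Genes for building ribosomes fell together. Of 29 measured ribosome biogenesis factors, 23 fell and none rose, against 4.66% of all genes tested, and the median term was -0.21, beside 0.00 over all genes. The mean signal of the list ran from 8.67 to 8.94 (median 8.69) at low stretch without CO2 and from 8.53 to 8.75 (median 8.61) with it. The high stretch arrays ran from 8.98 to 9.34 (median 9.18) without and from 8.71 to 9.06 (median 8.94) with CO2. Both pairs overlapped, and the non-ventilated lungs lay between 8.48 and 8.71. Without the 4 arrays with muscle signal 18 of the 29 fell.

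Utp20, a scaffold protein of the small subunit processome, led the list. It had 8.11, 8.25, 8.28, 8.34 and 8.56 at low stretch without CO2 and 7.72, 7.76, 7.92, 7.97 and 8.05 with it. In the high stretch mice it ran from 8.41 to 8.77 (median 8.54) without and from 7.85 to 8.30 (median 8.19) with CO2. The groups were apart at each level and the term was -0.42 ± 0.05 (adjusted p = 2.84e-06). The RNA polymerase I subunits Polr1b (-0.39 ± 0.06) and Polr1e (-0.31 ± 0.05) fell, as did Noc3l (-0.39), Rrp12 (-0.36) and the snoRNA-binding core protein Nop58 (-0.35). The 6 that did not pass included Npm1 at -0.09 and Gnl3 at -0.24. The stretch term for Utp20 was 0.26 and for Nop58 0.78, beside CO2 terms of -0.42 and -0.35.

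Promoters of this list are shown because most of its members fell, and the E-box CACGTG is the binding motif of MYC and its relatives. CACGTG was in the 300-base RefSeq window of 7 of the 24 members that have one, 29.2%, against 9.50% of 15614 genes tested. Among all genes that fell it was in 14.9% of 750, and among those that rose in 10.6% of 632. The cholesterol synthesis list described below, where genes rose, held it in 4 of 16 members with a window, 25%. Of the lists below where genes fell, it was in 27.3% of aminoacyl-tRNA synthetases, 25% of RNA polymerase subunits and 23.3% of tRNA-modifying genes. In DEAD and DEAH box helicases it was in 15.6%, and in ATF4 genes in 12.5%. Phosphodiesterases and adenylate cyclases, where genes rose, held it in 4%. Cytosolic ribosomal proteins, where none passed, held it in 10.6%. Whether the motif bears on the falls was not tested. CACGTG reads the same on both strands. A match describes letters in a window and shows no binding. The stretches below (RefSeq, GRCm38.p6) hold 150 bases before and 30 after the start site of 4 members that fell, with CACGTG in capitals. The first base of the motif lies at -60 in Nop2, at -48 in Rrn3, at 3 in Pes1 and at 18 in Wdr43. They were picked for holding it.
Nop2 (chr6:125131733-125131912, plus strand): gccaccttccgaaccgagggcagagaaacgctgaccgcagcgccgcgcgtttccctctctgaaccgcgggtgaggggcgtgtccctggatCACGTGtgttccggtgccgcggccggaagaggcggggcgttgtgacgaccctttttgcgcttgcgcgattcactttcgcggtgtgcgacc
Rrn3 (chr16:13780549-13780728, plus strand): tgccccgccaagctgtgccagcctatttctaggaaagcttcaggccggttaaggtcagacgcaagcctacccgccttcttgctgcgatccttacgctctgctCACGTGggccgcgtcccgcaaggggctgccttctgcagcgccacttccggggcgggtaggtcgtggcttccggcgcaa
Pes1 (chr11:3963825-3964004, plus strand): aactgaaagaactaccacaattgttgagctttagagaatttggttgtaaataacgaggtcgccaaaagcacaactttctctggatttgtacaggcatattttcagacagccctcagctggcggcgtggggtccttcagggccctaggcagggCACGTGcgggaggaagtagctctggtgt
Wdr43 (chr17:71616065-71616244, plus strand): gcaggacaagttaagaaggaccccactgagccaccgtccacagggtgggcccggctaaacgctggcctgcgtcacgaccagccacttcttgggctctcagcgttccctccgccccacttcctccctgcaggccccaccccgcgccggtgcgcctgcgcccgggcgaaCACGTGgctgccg

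The CO2 terms of these 4 genes were -0.29 for Nop2, an rRNA methyltransferase, -0.13 for Rrn3, the factor that brings RNA polymerase I to the promoter, -0.22 for Pes1, of large subunit assembly, and -0.22 for Wdr43, of the small subunit processome, and all 4 passed. Utp4 holds the same motif in its window and did not pass, at -0.03.

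No such count was seen in the protein parts of the ribosome. None of the 59 cytosolic ribosomal protein genes passed, 1 had an unadjusted p under 0.05, and their median term was 0.02 (0.00 with centred arrays). Their mean signal per array ran from 10.38 to 10.56 and from 10.40 to 10.66 at low stretch without and with CO2, and from 10.41 to 10.66 and from 10.44 to 10.64 at high stretch, ranges that overlap almost wholly. This family and those in the next paragraph were gathered by their symbols after their values were seen.

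Enzymes that modify and charge tRNA fell in part. Of 35 tRNA methyltransferase, pseudouridine synthase and related genes 14 fell and none rose, with a median of -0.13. Of all genes tested 4.66% fell, which is the share to read beside each count in this paragraph. The 14 included Pus7l (-0.44 ± 0.08), Trmt61a (-0.44 ± 0.07), its partner Trmt6 (-0.26) and Qtrt2 (-0.33), a subunit of the queuosine transferase. Thg1l, described above, is also in this family. Of 18 cytosolic aminoacyl-tRNA synthetases 8 fell and none rose, from Iars (-0.40 ± 0.06) and Yars (-0.27) to Tars (-0.26). Of 14 RNA polymerase I and III subunits 6 fell, Polr3b (-0.21) and Polr1a (-0.21) among them. Polr1a and Polr1b also belong to the ribosome biogenesis list, so these counts are not separate from the count there. Of 51 DEAD and DEAH box helicases 16 fell, led by Ddx18 and Ddx31 (-0.31), and 9 fell without the 4 arrays with muscle signal. Of 48 proteasome genes 11 fell by at most 0.19, including Psmd6 (-0.17) and Psmd14 (-0.15), and only 4 fell without those arrays. Leaving out 1 array at a time moved the proteasome count between 6 and 13. Of 8 chaperonin subunits 3 fell, including Cct8 (-0.15), and 3 to 5 with 1 array left out.

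Amino acid genes under ATF4, the transcription factor of the integrated stress response, fell in part. In this list 8 of 28 fell, against 4.66% of all genes tested, none rose, and the median was -0.11. Mthfd2, a mitochondrial one-carbon enzyme, had 7.39, 7.64, 7.64, 8.27 and 8.33 at low stretch without CO2 and 7.22, 7.23, 7.26, 7.71 and 7.78 with it. At high stretch it ran from 8.04 to 9.29 (median 8.57) without and from 7.43 to 8.46 (median 7.97) with CO2. The groups overlapped at both levels, and the term was -0.54 ± 0.11 (adjusted p = 0.00207). Asns, asparagine synthetase, fell by 0.39 ± 0.07 and the amino acid transporter genes Slc7a5 and Slc7a1 by 0.37 ± 0.07 and 0.25 ± 0.08. The synthetases Nars (-0.23) and Gars (-0.22) belong to this list as well as to the synthetase family. None of 20 endoplasmic reticulum chaperone genes passed, and the median was -0.02; 4 had an unadjusted p under 0.05.

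Some mitochondrial translation genes fell, and no respiratory chain gene passed. Of 29 genes of the mitochondrial ribosome and translation 8 fell, against 4.66% of all genes tested, and none rose, with a median of -0.09. Fastkd2, which binds mitochondrial RNA, fell by 0.41 ± 0.05 (adjusted p = 1.31e-06), the transcription factor gene Tfb2m by 0.21 ± 0.05 and the elongation factor gene Gfm1 by 0.16 ± 0.04. The ribosomal protein genes Mrpl1 (-0.17), Mrps30 (-0.16) and Mrpl3 (-0.15) fell. Among all 76 mitochondrial ribosomal protein genes, gathered by symbol, 11 fell, and 6 without the 4 arrays with muscle signal. None of 33 respiratory chain subunits passed, 1 had an unadjusted p under 0.05, and their median was -0.01. None of 21 tricarboxylic acid cycle genes passed, 6 had an unadjusted p under 0.05, and their median was also -0.01.

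In the list of mTOR, a kinase pathway that responds to amino acids, 2 of 27 rose and 2 fell, beside 3.87% and 4.66% of all genes tested. Mlst8, a subunit of both mTOR complexes, fell by 0.35 ± 0.05 (adjusted p = 1.84e-05), and Nprl3, part of the GATOR1 brake on mTORC1, fell by 0.15 ± 0.04. Nprl3 did not pass without the 4 arrays with muscle signal, with equal weight of both stretch levels or at high stretch alone. Castor1, an arginine sensor, rose by 0.33 ± 0.08, and Rictor, the defining subunit of mTORC2, by 0.11 ± 0.03. Ints7 (-0.32 ± 0.04) and Ints2 (-0.18 ± 0.05), subunits of the Integrator complex that processes small nuclear RNAs, fell among 19 Integrator and elongation genes. Of 30 cell cycle and replication genes 4 fell and 2 rose: the replication genes Mcm5 (-0.22) and Pcna (-0.19) were among those that fell, and Cdt1 (0.21) and Cdk2 (0.24) rose. Without the 4 arrays with muscle signal 2 fell and 2 rose.

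Cholesterol synthesis had the largest share of rises among the lists: 11 of 20 genes rose and none fell, against 3.87% of all genes tested, with a median of 0.18. The mean signal of the list ran from 9.12 to 9.37 (median 9.32) at low stretch without CO2 and from 9.29 to 9.51 (median 9.39) with it. The high stretch arrays ran from 9.13 to 9.27 (median 9.22) without and from 9.26 to 9.63 (median 9.41) with CO2. At high stretch 9 of the 10 hypercapnia arrays are above every normocapnia array, and the low stretch groups overlap. Non-ventilated lungs had 8.97 to 9.20. Without the 4 arrays with muscle signal 9 of the 20 rose.

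**Figure D3:**
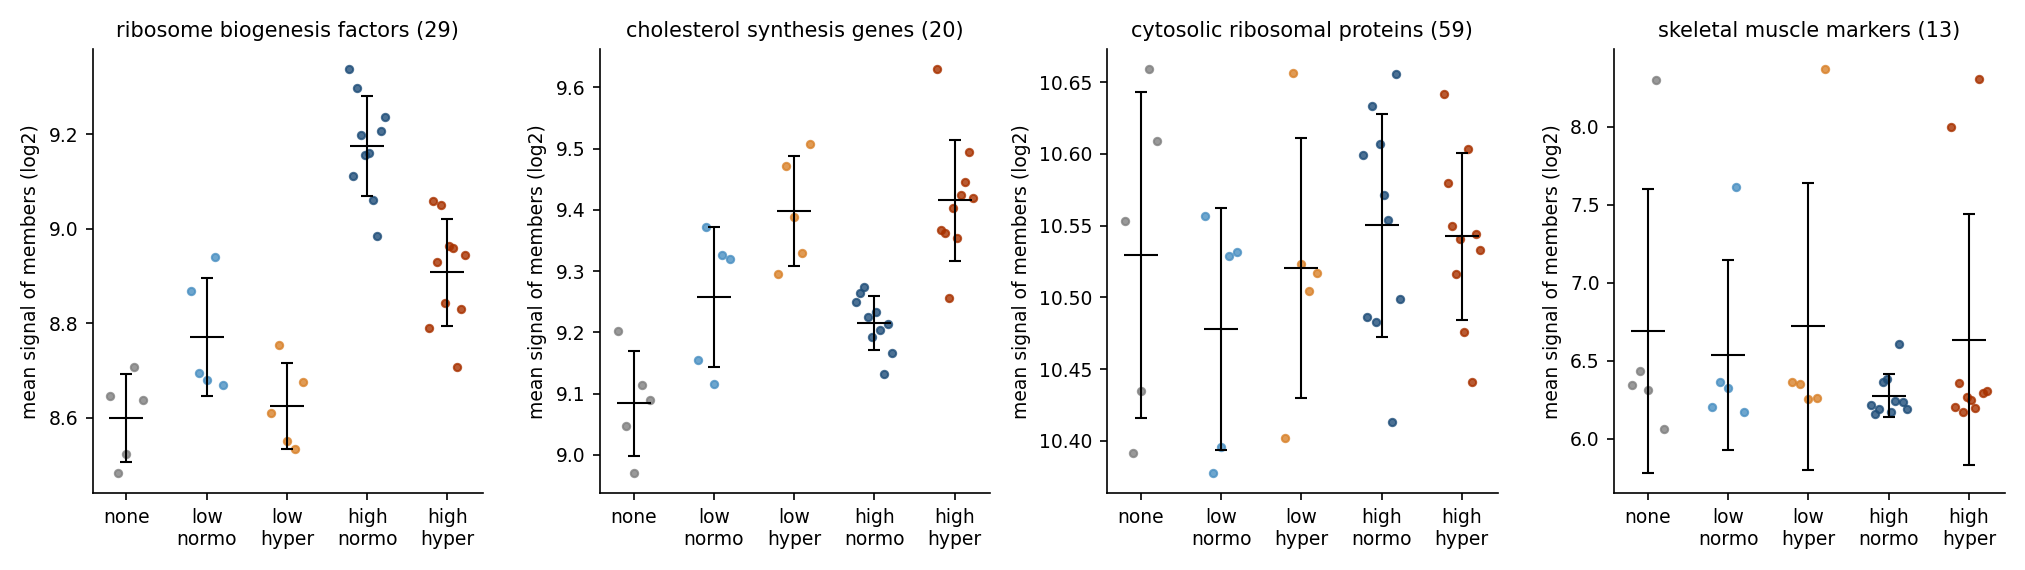
Mean log2 signal of the members of 4 lists (y axis) on each array by group (x axis as labelled; points are arrays, black bars the mean and SD). Ribosome biogenesis factors were lower with CO2 (high stretch medians 9.18 and 8.94), cholesterol synthesis genes higher (9.22 and 9.41), the cytosolic ribosomal proteins overlap, and skeletal muscle markers are above 7 on 4 ventilated arrays and 1 non-ventilated one.

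The genes that rose lie along the pathway from mevalonate to sterols. After Pmvk came Lss, lanosterol synthase, which closes the sterol rings, with 8.61, 8.66, 8.79, 8.93 and 8.93 at low stretch without CO2 and 8.70, 8.91, 8.95, 8.99 and 9.15 with it. At high stretch Lss ran from 8.40 to 8.79 (median 8.62) without and from 8.89 to 9.27 (median 9.00) with CO2. The high stretch groups did not overlap and the low stretch groups did, and the term was 0.32 ± 0.05 (adjusted p = 7.26e-05). Msmo1, a sterol demethylating oxidase, rose by 0.28 ± 0.05, Fdft1, squalene synthase, by 0.24 ± 0.05, and Dhcr7, the last reductase, by 0.23 ± 0.06. Mvd (0.23), the decarboxylase after Pmvk, Sqle (0.20), Cyp51 (0.19), Fdps (0.18) and the sterol carrier Stard4 (0.18) rose as well. Srebf2, the transcription factor that drives these genes, rose by 0.11 ± 0.03 (adjusted p = 0.0329). The Srebf2 call was lost with centred arrays, a second quantile normalization, no stretch term or without the 4 arrays with muscle signal, where the limma adjusted p was 0.0554 to 0.129, and in 9 of the 30 fits that left out 1 array. Mvk, the kinase just before Pmvk, was at -0.05, Insig1, a brake on the pathway, at 0.06 and Hmgcs1 at 0.15, and none of these passed.

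Promoters of this list are shown for CCAAT, the motif of NF-Y, a factor that acts beside SREBP2 on sterol genes. Counted on both strands, CCAAT was in a window of all 16 members that have one. It was in 41.7% of 15614 genes, 44.9% of the 632 that rose and 39.9% of the 750 that fell. Some members have several windows. Counted over windows, the shares were 84.2% of 19 for the list and 37.4% of 19177 for all genes. The stretches (RefSeq, GRCm38.p6) hold the 150 bases before the start site. Capitals mark CCAAT or its reverse complement, and in Msmo1 also TGAGTCA, the AP-1 motif. The first base lies at -136 in Pmvk, -62 in Lss, -60 and -27 in Mvd, and -96 and -55 in Msmo1. Members that did not pass, such as Mvk, hold it too. TCACCCCAC, a sterol element bound by SREBP2, was in 1 of the 16, Hmgcs1, against 0.634% of all 15614 genes. Among lists with falls, CCAAT was in 58.3% of the ATF4 genes with a window and in 25% of the ribosome biogenesis factors.
Pmvk (chr3:89454391-89454540, plus strand): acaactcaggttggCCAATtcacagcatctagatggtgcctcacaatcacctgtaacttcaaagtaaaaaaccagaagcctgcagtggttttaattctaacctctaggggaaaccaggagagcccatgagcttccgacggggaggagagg
Lss (chr10:76531455-76531604, plus strand): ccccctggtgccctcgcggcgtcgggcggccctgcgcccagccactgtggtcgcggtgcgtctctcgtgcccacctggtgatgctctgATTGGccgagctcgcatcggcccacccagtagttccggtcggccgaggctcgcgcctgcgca
Mvd (chr8:122443423-122443572, minus strand): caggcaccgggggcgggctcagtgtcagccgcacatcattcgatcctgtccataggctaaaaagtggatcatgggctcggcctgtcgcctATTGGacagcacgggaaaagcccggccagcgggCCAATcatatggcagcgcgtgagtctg
Msmo1 (chr8:64733579-64733728, minus strand): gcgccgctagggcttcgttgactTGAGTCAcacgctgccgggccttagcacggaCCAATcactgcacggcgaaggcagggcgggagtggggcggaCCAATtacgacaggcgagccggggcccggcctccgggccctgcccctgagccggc

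Few other lipid genes passed. Of 30 genes of fatty acid synthesis and oxidation 3 rose, beside 3.87% of all genes tested, and none fell, with a median of 0.02. Ppara, a nuclear receptor that switches on fatty acid oxidation, rose by 0.27 ± 0.04 (adjusted p = 1.45e-05), Fads1, a desaturase, by 0.17 ± 0.05 and Pnpla2, a triglyceride lipase, by 0.14 ± 0.04. Fads1 was near the threshold, with an adjusted p of 0.0483.

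Genes that handle CO2, bicarbonate and protons mostly did not pass. Of 16 carbonic anhydrases only Car14, a membrane enzyme facing outward, rose, beside 3.87% of all genes tested. It had 7.26, 7.47, 7.50, 7.68 and 7.73 at low stretch without CO2 and 7.21, 7.74, 7.78, 7.87 and 7.91 with it. At high stretch Car14 ran from 7.05 to 7.52 (median 7.34) without and from 7.57 to 8.17 (median 7.79) with CO2, with no overlap, while at low stretch 1 hypercapnia array was the lowest of all 10. The term was 0.38 ± 0.07 (adjusted p = 0.000354), and non-ventilated lungs had 7.86 to 8.12, above the ventilated normocapnia arrays. Car2, the abundant cytosolic enzyme, was at 0.15 (adjusted p = 0.13) and Car4, of lung capillaries, at 0.04.

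Among 15 bicarbonate transporters and anion exchangers 1 rose and 1 fell, beside 3.87% and 4.66% of all genes tested. Cftr, the apical chloride and bicarbonate channel, had 7.05, 7.14, 7.17, 7.29 and 7.35 at low stretch without CO2 and 7.13, 7.25, 7.32, 7.50 and 7.55 with it. At high stretch Cftr ran from 7.31 to 7.94 (median 7.74) without and from 7.67 to 8.38 (median 8.19) with CO2, with overlap at both levels. The term was 0.34 ± 0.07 (adjusted p = 0.00154). Slc26a4, the exchanger pendrin, had 5.92, 6.22, 6.39, 6.45 and 6.52 at low stretch without and 5.78, 6.17, 6.30, 6.49 and 6.60 with CO2. Its high stretch values ran from 6.91 to 8.03 (median 7.20) without and from 6.26 to 6.86 (median 6.59) with CO2. The high stretch groups did not overlap and the low stretch groups covered the same range. The term was -0.49 ± 0.12 (adjusted p = 0.0079), and the interaction did not pass (adjusted p = 0.949). Slc4a1, the red cell anion exchanger, had a term of 0.46 that did not pass (adjusted p = 0.074).

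Of 13 sodium-proton exchangers and monocarboxylate transporters only Slc9a8, of the Golgi and apical membrane, fell, by 0.21 ± 0.04 (adjusted p = 0.000259). Of 16 proton and bicarbonate sensors 2 fell: Kcnk2, the stretch- and pH-gated potassium channel TREK-1, by 0.31 ± 0.07 and Ptk2b, an acid-sensitive tyrosine kinase, by 0.19 ± 0.05. The proton-sensing receptors Gpr4, Gpr65 and Gpr132 were at 0.11, 0.11 and 0.07, and the bicarbonate-activated cyclase Adcy10 at 0.03, and none passed. Of 15 transporters of alveolar fluid clearance only the amino acid transporter Slc6a14 fell, by 0.31 ± 0.05. The share of all genes tested that fell, 4.66%, is to be read beside each count in this paragraph.

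**Figure D4:**
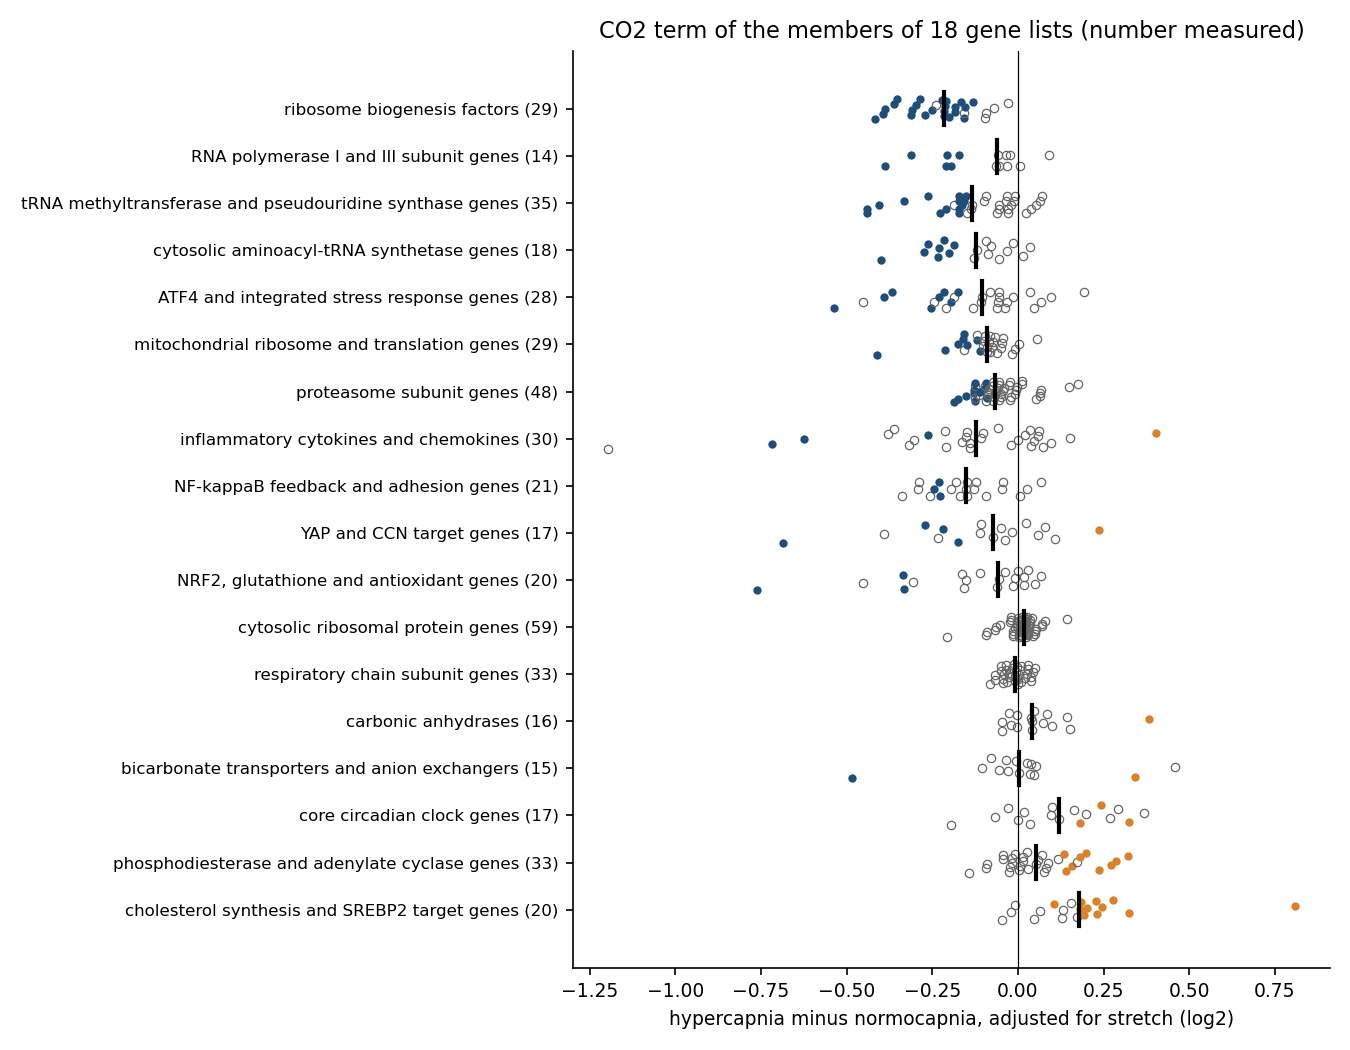
CO2 term (x axis, log2) of every measured member of 18 gene lists (y axis, number measured in brackets); filled points passed (blue lower, orange higher), open points did not, and black bars are medians. Ribosome biogenesis lies furthest left at a median of -0.21 and cholesterol synthesis furthest right at 0.18; the open point near -1.20 is Cxcl10.

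Few inflammatory genes passed, and those that fell include some of the largest falls. Of 30 cytokines and chemokines 3 fell and 1 rose, beside 4.66% and 3.87% of all genes tested, with a median of -0.12. Besides Cxcl5 and Ccl2, the macrophage growth factor gene Csf1 fell by 0.26 ± 0.06, and Tnfsf9, the ligand of 4-1BB, rose by 0.40 ± 0.10. Cxcl10, an interferon-induced chemokine, had the largest term of all genes, -1.20 ± 0.40, and did not pass (adjusted p = 0.0614). At high stretch Cxcl10 ran from 7.92 to 11.14 (median 9.12) without and from 7.45 to 11.76 (median 7.76) with CO2, so 1 hypercapnia array was the highest of all. None of 22 interferon response genes passed, 2 had an unadjusted p under 0.05, and their median was -0.08.

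Of 21 genes of NF-kappaB feedback and adhesion 3 fell and none rose, with a median of -0.15, and 2 fell without the 4 arrays with muscle signal. With 1 array left out the count was 3 to 5. They were the adhesion molecules Vcam1 (-0.23 ± 0.06) and Icam1 (-0.23 ± 0.05), which hold leukocytes on endothelium, and the signalling adaptor Traf1 (-0.24 ± 0.06). Vcam1 was the one lost. Across all genes tested 4.66% fell and 3.87% rose, shares to read beside the counts in this paragraph. Of 21 metalloproteinase and inhibitor genes 3 fell: Mmp9, Timp1 and Timp4 (-0.19 ± 0.06). Ereg, epiregulin, was the only one of 22 genes of ADAM17 and the EGF receptor ligands to fall, by 0.43 ± 0.10 (adjusted p = 0.00289). Timp1 was the only one of 21 interleukin-6 and STAT3 targets to pass. Of 32 immediate-early genes Fosl1 fell by 0.36 ± 0.09 and Jund rose by 0.16 ± 0.04.

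Of 20 NRF2 and glutathione genes 3 fell and none rose: Hmox1, Osgin1 (-0.34 ± 0.11) and Gclm (-0.33 ± 0.07), which regulates glutathione synthesis. The list's median was -0.06. For this list and the next, the shares over all genes tested were 4.66% lower and 3.87% higher. The count of NRF2 and glutathione genes was 2 to 6 with 1 array left out and 7 at high stretch alone. Osgin1 lost its call in 15 of those omissions and without the 4 arrays with muscle signal. Of 17 YAP and CCN targets 4 fell and 1 rose. After Ccn2 these were Amotl2 (-0.27 ± 0.08), Tgfb2 (-0.22 ± 0.07) and Tead4 (-0.17 ± 0.04), the DNA-binding partner of YAP, while Amotl1, an angiomotin that binds YAP, rose by 0.24 ± 0.04. The median of that list was -0.07. Amotl1 and Amotl2 are related proteins and changed in opposite directions.

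Few leukocyte markers passed, beside 4.66% of all genes tested that fell. Of 20 neutrophil markers 2 fell, Mmp9 and Wfdc21 (-0.37 ± 0.12), with a median of -0.14, and 1 fell without the 4 arrays with muscle signal. With 1 array left out 1 to 4 passed. Their mean signal per array overlapped: 8.88 to 9.72 and 8.65 to 10.10 at low stretch, and 8.83 to 9.90 and 8.72 to 10.06 at high stretch, without and with CO2. Of 14 B cell markers 3 fell, Fcer2a (-0.34 ± 0.10), Ms4a1 (-0.33 ± 0.09), which encodes CD20, and Fcrla (-0.24 ± 0.07), with a median of -0.11. Of 18 T and natural killer cell markers Ncr1 and the receptor gene Klrb1c (-0.32 ± 0.09) fell, and the median was 0.00; without the 4 arrays with muscle signal 1 fell and 2 rose. None of 12 alveolar macrophage markers passed, also at an unadjusted p under 0.05. Of 14 alveolar type 2 cell markers the transcription factor gene Etv5 (-0.30 ± 0.06) and the phosphate transporter gene Slc34a2 (-0.19 ± 0.04) fell, with a median of 0.01. The part of cell numbers in the inflammatory and ribosome results was not tested.

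Some cyclic AMP and clock genes rose, beside 3.87% of all genes tested that rose and 4.66% that fell. Of 19 CREB and cyclic AMP targets 3 rose and 1 fell, with a median of 0.13: the phosphodiesterase genes Pde7b (0.29 ± 0.05) and Pde4d (0.16 ± 0.05) and the clock gene Per1 (0.24 ± 0.05) rose, and the neurotrophin gene Bdnf fell by 0.23 ± 0.05. Among 33 phosphodiesterases and adenylate cyclases, gathered after their values were seen, 9 rose and none fell. Pde9a (0.32), Pde3b (0.27), Pde3a (0.20), Adcy2 (0.24) and Adcy4 (0.18) were among them, and 6 rose with centred arrays. Of 17 core clock genes 3 rose, Cry2 (0.33 ± 0.07), a repressor of the clock, Per1 and the nuclear receptor Rora (0.18 ± 0.04), and the median was 0.12. Of 23 glucocorticoid targets 3 rose, including Per1 and Fkbp5 (0.19), with a median of 0.05, and 1 rose without the 4 arrays with muscle signal.

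Vessel and developmental lists had few members that passed, all upward, beside 3.87% of all genes tested. In the vascular tone list 2 of 25 rose, Ramp3 and Nos3 (0.17 ± 0.05), the endothelial nitric oxide synthase. Nos3 (adjusted p = 0.0444) did not pass with centred arrays or without the 4 arrays with muscle signal, which left 1 of the 25, and the count was 1 to 3 with 1 array left out. Of 14 smooth muscle and pericyte markers 3 rose, Cspg4 (0.18), Itga8 (0.17) and Notch3 (0.12), and 1 rose without the 4 arrays with muscle signal. Of 30 Wnt genes 3 rose, the coreceptor Lrp5 (0.18), Fzd4 (0.15) and Wnt2b (0.14), and none of the 30 passed without those arrays. Of 23 BMP and SMAD feedback genes Smad6 (0.36 ± 0.11), an inhibitory SMAD, and Atoh8 (0.14 ± 0.04) rose. None passed with centred arrays, and 0 to 4 with 1 array left out.

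Chromatin and zinc finger families, gathered by symbol after their values were seen, leaned upward. Among all genes tested 3.87% rose and 4.66% fell, shares to read beside each family's count. Of 44 lysine methyltransferase genes 13 rose and 3 fell. Setd7 (0.21), Ezh2 (0.20), the catalytic subunit of Polycomb complex 2, and Kmt2e (0.19) rose, while Smyd5 (-0.25) and Kmt5b (-0.16) fell. Of 20 PHD finger genes 7 rose, with Phf24 (0.31), Phf21a (0.28) and Phf13 (0.20) first. Of 40 ZBTB genes 8 rose and 1 fell, and Zbtb4 and Zbtb7b both rose by 0.27. The GC box GGGGCGGGG was in the window of 32.9% of the 632 genes that rose, 17.7% of the 750 that fell and 18.7% of all 15614, on both strands. Genes that rose have more windows, 1.36 per gene against 1.23; counted over windows, the shares were 26.7, 15.7 and 16.4%. The promoters of Ramp3 and Kcnj2 (RefSeq, GRCm38.p6, 150 bases before the start site) show the box, which begins at -79 and -103. In Kcnj2 capitals also mark CACGTG at -84 and CCAAT on the minus strand at -71.
Ramp3 (chr11:6658383-6658532, plus strand): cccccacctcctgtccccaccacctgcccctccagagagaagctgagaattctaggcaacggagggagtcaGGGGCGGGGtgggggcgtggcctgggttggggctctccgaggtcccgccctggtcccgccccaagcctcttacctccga
Kcnj2 (chr11:111066014-111066163, plus strand): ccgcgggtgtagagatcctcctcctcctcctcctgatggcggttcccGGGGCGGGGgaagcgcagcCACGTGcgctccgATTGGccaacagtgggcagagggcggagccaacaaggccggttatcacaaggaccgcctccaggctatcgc

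Some non-coding genes of an imprinted stretch of chromosome 12, the Dlk1-Dio3 region, rose; they were picked out after their values were seen. Meg3 had 7.44 to 7.61 and 7.52 to 7.81 at low stretch without and with CO2, and 7.23 to 7.61 and 7.54 to 7.87 at high stretch. Both pairs overlapped and the term was 0.16 ± 0.04 (adjusted p = 0.00922). Rian rose by 0.31 ± 0.07. Of 39 microRNA hairpins there, 4 rose and none fell (Mir323, Mir300, Mir382 and Mir377, by 0.31, 0.28, 0.26 and 0.25) with a median of 0.06, while of 257 other microRNA genes 3 rose and 3 fell. With centred arrays 2 of the 39 rose. In the main fit 3.87% of all genes tested rose and 4.66% fell. Ventilated group means of the 4 hairpins were 3.65 to 4.52, below the array medians. Mir300 and Mir377 each lost the call in 12 of the 30 fits that left out 1 array. Whether these signals come from the hairpin, its host transcript or the mature microRNA was not tested.

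All 10 microRNA genes that passed were matched to mature sequences (RefSeq, GRCm38.p6). Those of the 4 hairpins are shown with the seed, bases 2 to 8, in capitals: the 8 arms have 8 different seeds. Mir146, known for feedback on NF-kappaB, fell and is shown with them.
mmu-miR-323-5p: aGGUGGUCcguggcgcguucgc
mmu-miR-323-3p: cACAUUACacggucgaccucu
mmu-miR-300-5p: uUGAAGAGagguuauccuuugu
mmu-miR-300-3p: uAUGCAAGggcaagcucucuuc
mmu-miR-382-5p: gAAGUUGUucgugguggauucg
mmu-miR-382-3p: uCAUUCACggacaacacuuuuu
mmu-miR-377-5p: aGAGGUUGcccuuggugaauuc
mmu-miR-377-3p: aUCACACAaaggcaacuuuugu
mmu-miR-146a-5p: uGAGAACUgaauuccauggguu
mmu-miR-146a-3p: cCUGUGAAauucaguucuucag

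Mir146 had 4.29, 4.49, 4.79, 4.98 and 5.97 at low stretch without CO2 and 3.99, 4.26, 4.46, 4.67 and 4.82 with it. At high stretch Mir146 ran from 5.02 to 5.97 (median 5.49) without and from 4.50 to 5.44 (median 4.86) with CO2. The groups overlapped at both levels, at signals below the array medians. The term was -0.52 ± 0.13 (adjusted p = 0.00914). Mir490 fell by 0.32 ± 0.09 and Mir218-1 by 0.28 ± 0.07. Mir680-2 (0.22), Mirlet7e (0.14) and Mir331 (0.12) rose.

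Whether the CO2 effect depended on stretch was tested by the interaction. The high stretch mice also had more oxygen, no end-expiratory pressure and slower breathing. The stretch and interaction terms therefore compare whole ventilation settings, whose parts cannot be told apart. No gene passed (limma; smallest adjusted p = 0.265), while 1043 genes had an unadjusted p under 0.05. Of the 1701 genes, 1684 had the same sign at both levels. They were chosen by the average over these same arrays, which favours equal signs, so this count is no test of agreement. Fitted alone, the 20 high stretch arrays gave 1127 calls, 5.65% of genes, and the 10 low stretch arrays none, with 1594 genes at an unadjusted p under 0.05. These fits use different animals. Of the 1127 genes called at high stretch, 1008 (89.4%) had the same sign at low stretch, against 60.5% of all genes. Their median at low stretch was 0.13 for the 509 higher and -0.14 for the 618 lower genes, beside 0.21 and -0.23 at high stretch, where they were chosen. Across the 1127 genes, which are not independent replicates, Pearson's r was 0.78, and across all genes 0.39.

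Several lists were read the same way, with no test of a difference between them. All 22 ribosome biogenesis factors called at high stretch had the same sign at low stretch, and the list's median was -0.14 at low and -0.26 at high stretch. Of 9 cholesterol genes called at high stretch 8 had the same sign, with list medians of 0.11 and 0.17, and of 11 ATF4 genes 10. All 8 aminoacyl-tRNA synthetases and all 13 DEAD and DEAH box genes called at high stretch had the same sign. Smaller counts were 4 of 5 for immediate-early genes, 6 of 7 for NRF2 genes, 3 of 4 for CREB targets and for cytokines and chemokines, 2 of 3 for NF-kappaB genes and 2 of 4 for ADAM17 and EGF receptor ligands. Of 6 microRNA genes outside the Dlk1-Dio3 region that were called at high stretch, 3 had the same sign. Inside the region 1 of the 39 hairpins was called at high stretch, and it did not keep its sign. Called or not, 30 of the 39 had the same sign at both levels.

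**Figure D5:**
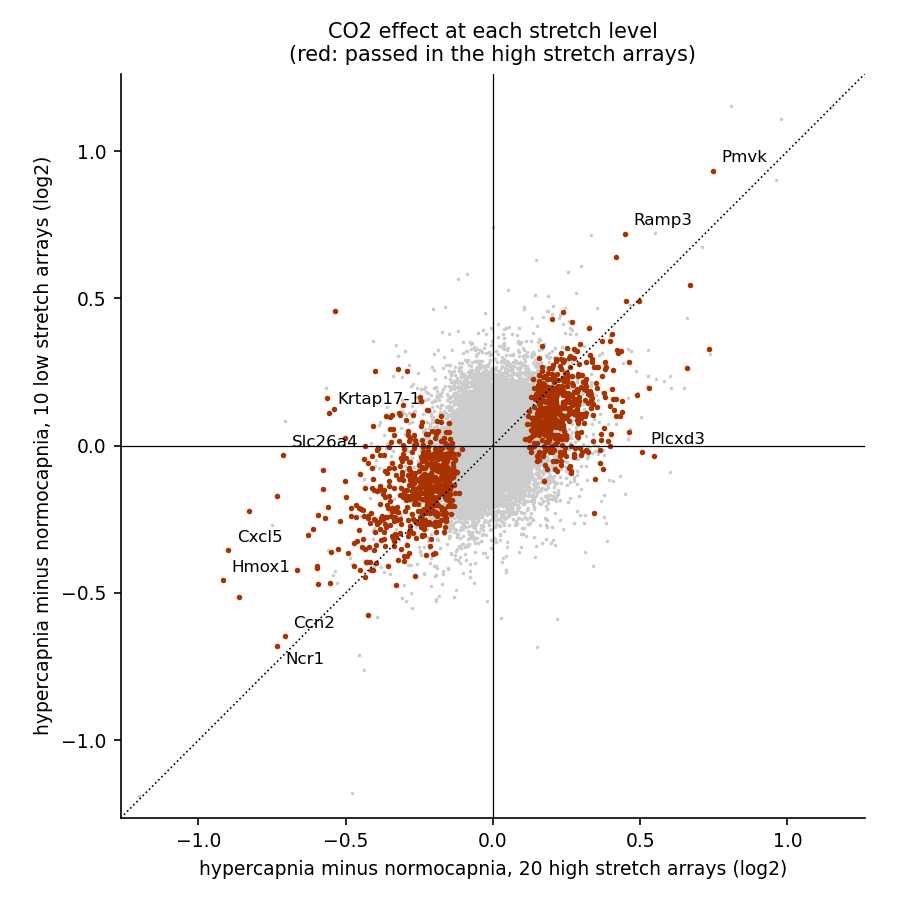
CO2 effect in the 20 high stretch arrays (x axis, log2) against the 10 low stretch arrays (y axis, log2), 1 point per gene; red points are the 1127 genes called at high stretch and the dotted line marks equal effects. Of the red points 1008 have the same sign on both axes; Pmvk and Ramp3 lie above the dotted line and Cxcl5, Hmox1 and Slc26a4 are nearer to 0 at low stretch.

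The 10 genes that passed for CO2 with the smallest interaction p are described here, and 9 had the larger effect at high stretch. They had first to pass a term in which 20 of the 30 arrays are high stretch. That choice favours larger effects at high stretch, so the count of 9 does not show that such effects are more common. Krtap17-1, a hair keratin-associated protein gene, had 8.69, 8.95, 8.98, 8.99 and 9.09 at low stretch without CO2 and 8.87, 8.98, 9.05, 9.14 and 9.22 with it. In the high stretch mice it ran from 9.66 to 10.26 (median 9.93) without and from 9.06 to 9.60 (median 9.43) with CO2. The high stretch groups did not overlap, and at low stretch the groups overlapped with a difference of 0.11 the other way. The CO2 term was -0.33 ± 0.09 (adjusted p = 0.011) and the interaction did not pass (adjusted p = 0.265). Plcxd3 had 0.51 at high and -0.02 at low stretch, and Slc1a4, a neutral amino acid transporter, -0.29 and 0.05 (interaction adjusted p = 0.862 for each). Mal, Irx1, B3galt6, Ears2, Aass and Rev3l had larger effects at high stretch, and Efs had 0.38 at low and 0.07 at high stretch. In these 10 genes no difference between the levels passed.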

How the data were processed

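Lung RNA of 35 mice was measured on 35 Affymetrix arrays, 1 animal per array; the labels call them biological replicates and give no batch or date. The deposited values are log2 signals per probe set that the authors made with RMA, per the submitters' processing notes, where Partek and Affymetrix Expression Console are listed too, with no version. From them 1 probe set per gene was kept: exactly 1 symbol and the highest mean over the 35 arrays. limma 3.58.1 in R 4.3.3 fitted stretch and CO2 on the 30 ventilated arrays, with moderated tests, two-sided, and Benjamini-Hochberg adjustment over 19938 genes; passing means an adjusted p under 0.05. Levels were not compared between genes. The number of arrays limits the precision. The fit was tested on simulated data of 19938 genes, with 50 genes changed at each size. It recovered 18% of changes of 0.15, 76% of 0.25, 94% of 0.5 and 100% of 1 log2 unit, with 6 false calls among 150. The simulation gave each gene independent noise and changed a smaller share of genes than passed here. Its rates therefore need not hold for these data. Named were the 15 largest rises and falls, the 5 smallest p-values, the 10 smallest interaction p-values among genes that passed, and up to 6 members per list; further genes were added after their values were seen. Members and lists were chosen with earlier results of these data known. Promoter windows (250 bases before to 50 after a start) and microRNAs came from RefSeq, GRCm38.p6. Alternatives covered the arrays, normalization, probe sets, weights, design and each array left out.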

Additional observations from a re-analysis of the deposited data

Results flagged for a closer look

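For 41 of 736 sets of 1 gene and 1 group, the highest or lowest array lay far from the other arrays of its group by Dixon's criterion; chance gives about 37, or 1 in 20. The values are log2 signals, and no cause was tested. Low stretch hypercapnia replicate 1 was the highest of its group for Rnd1 at 8.14 and Mmp9 at 9.62 and was the lowest of its group for Car14 at 7.21, Mrpl3 at 8.42, Nprl3 at 8.18, Smad6 at 8.74 and Polr3b at 8.71. High stretch hypercapnia replicate 8 was the highest of its group for Pmvk at 11.65, Ramp3 at 8.68, Pde4d at 9.94 and Cdt1 at 7.99 and was the lowest of its group for Scel at 8.37. Low stretch normocapnia replicate 1 was the highest of its group for Slc1a4 at 8.76, Csf1 at 8.98, Icam1 at 11.36 and Osgin1 at 9.51 and was the lowest of its group for Amotl1 at 8.77. High stretch hypercapnia replicate 2 was the lowest of its group for Irx1 at 8.43, Wdr77 at 9.57, Ddx31 at 6.84, Nop56 at 9.60 and Pcna at 10.05. High stretch normocapnia replicate 2 was the lowest of its group for B3galt6 at 6.48, Ddx31 at 7.13 and Psmd6 at 9.95. High stretch hypercapnia replicate 10 was the highest of its group for Ccl2 at 7.74 and was the lowest of its group for Dhcr7 at 7.55. High stretch normocapnia replicate 4 was the highest of its group for Ubxn8 at 9.02 and Slc34a2 at 13.29. Low stretch hypercapnia replicate 5 was the highest of its group for Itga8 at 11.11 and was the lowest of its group for Man2a2 at 8.90. High stretch normocapnia replicate 1 was the highest of its group for Mat1a at 9.07. High stretch hypercapnia replicate 5 was the highest of its group for Cxcl5 at 7.59. High stretch hypercapnia replicate 4 was the lowest of its group for Efs at 6.44. Low stretch normocapnia replicate 4 was the lowest of its group for Slc9a8 at 9.33. High stretch normocapnia replicate 7 was the lowest of its group for Timp4 at 6.01. High stretch normocapnia replicate 9 was the highest of its group for Smad6 at 9.15. Low stretch hypercapnia replicate 2 was the lowest of its group for Nop2 at 7.97. High stretch normocapnia replicate 5 was the lowest of its group for Zbtb34 at 7.94. Low stretch normocapnia replicate 3 was the highest of its group for Spats2 at 8.57. High stretch hypercapnia replicate 1 was the highest of its group for Sqle at 9.80.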

How the results depend on the processing

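The count of 1701 genes stayed within 1.5 times in all settings but these. Without the stretch term 1004 genes passed (443 higher, 561 lower). The low stretch arrays alone gave 0 genes, 0 higher and 0 lower, and the high stretch arrays alone 1127 (509 higher, 618 lower), from fewer samples. Without the 4 arrays with skeletal muscle signal, a setting chosen after seeing the data, 1125 passed (530 higher, 595 lower), also from fewer samples. A second quantile normalization gave 32 genes with no overlap, against 21; the cause was not tested. Leaving out 1 array at a time gave 1481 to 1799 genes, 656 to 864 higher and 789 to 1026 lower, 21 to 31 with no overlap, and 0 to 1 for the interaction, with 1 without low stretch hypercapnia replicate 5.

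In the low stretch arrays alone the sign turned for Krtap17-1 (0.11), Slc1a4 (0.049), Plcxd3 (-0.022), Mal (0.015), Irx1 (0.016), B3galt6 (0.056), Ears2 (0.041), Aass (-0.031) and Mir331 (-0.012). Over the settings other than single stretch levels and single arrays left out, the named genes kept direction and side of the threshold in 2168 cases, lost the call in 186 and reversed in 0. These settings reuse arrays on which the genes were chosen, which favours kept directions. Leaving out 1 of the 30 arrays at a time ended the call in 20 to 23 cases for Ears2, Fads1, Pde4d, Timp4, Notch3 and Wfdc21, and in 17 to 19 for Smad6, Wnt2b, Atoh8, Nos3 and Mir331. Deviations from the group means were correlated between arrays of different groups. The 35 same-numbered pairs had r from -0.31 to 0.38 (median 0.024), with 13 above 0.1. The 290 other pairs had r from -0.46 to 0.50 (median -0.015), with 83 above 0.1. These ranges overlap and cannot settle whether replicate numbers pair the arrays, which the main fit took as unpaired. With the replicate block 1709 genes passed (780 higher, 929 lower).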
